A study of Mus musculus with 10 samples.

Results

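The endoplasmic reticulum (ER) chaperones and the genes of the unfolded protein response were examined in cultured mouse molars treated with insulin-like growth factor 1 (IGF1). The members are 36 genes chosen by name and matched by symbol in the GENCODE M21 annotation, out of 18381 genes in the table. All 36 were found and all 36 passed the filter on low counts. First lower molars were dissected from wild type C57BL/6JOlaHsd embryos at embryonic day 14 and cultured in hanging drops for 6 h. Of each embryo, a tooth received mouse recombinant IGF1 at 750 ng/ml and the other received the same volume of vehicle (phosphate buffered saline with bovine serum albumin). The 5 IGF1 and 5 control teeth therefore come from the same 5 embryos, numbered 1, 2, 3, 4 and 6. Each library holds a whole tooth germ, epithelium and mesenchyme together, cultured outside the animal.

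Proteins that are secreted or placed in membranes enter the ER through the Sec61 channel and fold there with the help of chaperones, lectins and enzymes that form disulphide bonds. Chains that fail to fold are sent back to the cytosol and degraded, a process called ER-associated degradation. The unfolded protein response is the signalling that matches this machinery to its load, through the sensors IRE1 (Ern1), PERK (Eif2ak3) and ATF6. IRE1 splices the Xbp1 transcript, ATF6 is cut to release a transcription factor, and PERK phosphorylates the initiation factor eIF2 and so raises translation of ATF4. In the tooth germ, mesenchyme secretes collagens and both tissues secrete signals and basement membrane, all of which fold in the ER.

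Of the 36 members, 30 rose with IGF1 and 0 fell. Each was called where the quasi-likelihood test of edgeR, with embryo as a block, gave an adjusted p below 0.05. This is 83.3% of the members, beside 6.72% of all 14504 genes tested that rose and 4.76% that fell. The median log2 fold change was 0.57 over the members and -0.0038 over all genes tested. In each of the 30 called genes all 5 embryos were higher with IGF1, a pattern found in 13.0% of all genes tested. In 25 members every IGF1 tooth lay above every control tooth, which holds for 4.21% of all genes. The summed level of the members was 6923, 7761, 7286, 6026 and 8165 CPM (counts scaled to library size) in the control teeth of embryos 1, 2, 3, 4 and 6. With IGF1 the sums were 10160, 13776, 10604, 10451 and 10782 CPM, so the groups did not overlap. As a mean the members took up 0.723% of the control libraries and 1.11% of the IGF1 libraries. Most changes were modest, with a log2 fold change under 0.5 in 8 of the called genes, from 0.5 to 1 in 17 and above 1 in 5. In the following, values per tooth are in CPM after TMM scaling and always run over embryos 1, 2, 3, 4 and 6.

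**Figure D1:**
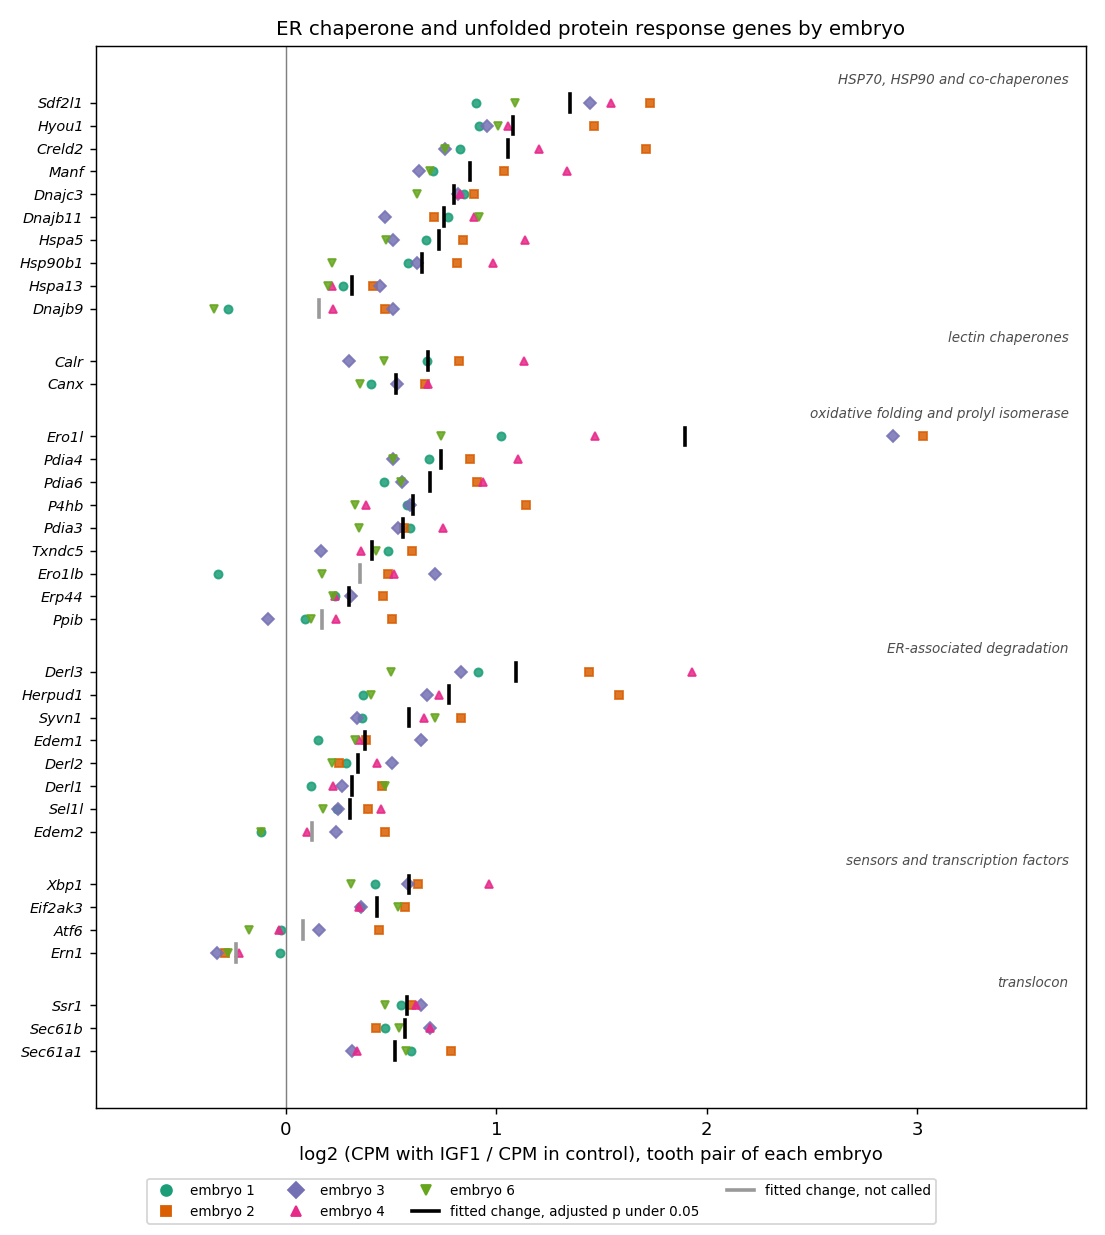
Difference between the teeth of each embryo (log2 of CPM with IGF1 over CPM in control, horizontal axis) for each of the 36 members, grouped by role. Coloured symbols are embryos and vertical bars are the fitted changes, black where the adjusted p was under 0.05. All 30 called genes have their 5 symbols to the right of 0, Ero1l is the widest spread and Ern1 is the gene with all symbols to the left.

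Library totals ran from 2845773 to 8403151 counts in the control teeth and from 3456634 to 8763113 in the IGF1 teeth, and embryo 1 had the smallest library of both groups. Epithelial markers (Epcam, Cdh1, Krt5, Krt14, Krt8, Trp63, Cldn4, Esrp1) and mesenchymal markers (Msx1, Barx1, Pax9, Lhx6, Lhx8, Prrx1, Twist1, Vim, Col1a2) were present in all teeth. The summed epithelial level was 1425 to 2166 CPM in control and 1747 to 2308 CPM with IGF1, and it was higher in 4 of 5 embryos. Of its 8 genes 1 rose, 5 had positive fold changes, and the median log2 fold change was 0.11. The median difference by embryo was mixed, at -0.0001, 0.21, 0.43, -0.17 and 0.31. The mesenchymal sum was 3961 to 4788 and 3480 to 4772 CPM, and it was lower in 4 of 5 embryos. Of its 9 genes 1 fell (Vim), 7 others had negative fold changes that were not called, and the median log2 fold change was -0.13, with a negative median in all 5 embryos. The sums of 3 lists were lower with IGF1 in 5 of 5 embryos. The erythroid sum was 717 to 1311 CPM in control and 513 to 1053 with IGF1 (4 of 5 tested genes fell). The endothelial sum was 369 to 420 and 292 to 385 CPM (1 of 7 fell), and the macrophage sum 57.4 to 88.1 and 45.8 to 71.99 CPM (1 of 6 tested fell). The sum of 6 Schwann and neuron markers was higher in 5 of 5 embryos, at 18.7 to 26.8 and 19.5 to 34.5 CPM (1 of 2 tested rose). Muscle markers summed to 8.18 to 23.4 and 6.77 to 48.1 CPM with 0 of 3 called, and bone and cartilage markers to 73.5 to 314 and 81.2 to 677 CPM with 1 of 5 higher. No listed marker was at 0 in every tooth. The part of these shifts in the changes of the ER genes was not tested, and in whole tooth germs a changed number of cells of a type and a changed amount of RNA per cell cannot be told apart.

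The ER stress response element is the sequence through which ATF6 and XBP1, together with the CCAAT-binding factor NF-Y, are known to act on chaperone genes. The promoters of the members are shown here for this element as a description. The members were chosen by name as ER chaperone and response genes, so the share of the element among them does not depend on IGF1. RefSeq promoter windows (GRCm38.p6, 250 bases before to 50 bases after the transcription start) were at hand for 30 members, and they were searched on both strands for CCAAT, followed by 9 bases of any kind and by CCACG. Some genes have more than 1 window (Erp44, Derl2 and Txndc5 among the members), so the shares here count genes with a match in any of their windows. The element was found in 10 of these 30 members, which is 33.3%, and in 37 of all 27025 genes with such a window, which is 0.137%. Among the 10901 genes tested that have a window it was in 18, which is 0.165%. The matches follow in capitals with 5 bases on either side, written 5′ to 3′ on the strand of the gene. In Calr, Derl3, Creld2, Ero1lb and the copy of Hsp90b1 closer to the start, the element lies on the opposite strand and so reads as its reverse complement.
Hspa5: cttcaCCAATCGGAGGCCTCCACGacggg
Hsp90b1 far copy: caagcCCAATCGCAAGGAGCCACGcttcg
Hsp90b1 near copy: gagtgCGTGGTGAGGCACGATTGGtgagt
Dnajc3: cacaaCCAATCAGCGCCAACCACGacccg
Creld2: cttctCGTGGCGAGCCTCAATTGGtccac
Calr: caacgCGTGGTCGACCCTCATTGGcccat
Canx: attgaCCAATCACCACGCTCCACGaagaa
Pdia6: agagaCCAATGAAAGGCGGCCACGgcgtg
Ero1lb: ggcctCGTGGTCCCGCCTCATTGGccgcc
Syvn1: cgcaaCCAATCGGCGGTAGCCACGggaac
Derl3: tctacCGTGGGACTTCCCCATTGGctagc

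The Hspa5 match lies 65 to 47 bases before the RefSeq start, in chr2:34772020-34772048 (plus strand), within a 5′ untranslated exon of a longer GENCODE transcript of Hspa5. The windows of the Hsp90b1 copies are chr10:86705633-86705661 and chr10:86705528-86705556 (minus strand). The others are chr14:118937822-118937850 (Dnajc3, plus), chr15:88819515-88819543 (Creld2, plus), chr8:84847070-84847098 (Calr, minus), chr11:50325795-50325823 (Canx, minus), chr12:17266486-17266514 (Pdia6, plus), chr13:12565677-12565705 (Ero1lb, plus), chr19:6046527-6046555 (Syvn1, plus) and chr10:75893237-75893265 (Derl3, plus). These 10 matched copies outside Hspa5 overlap no gene in GENCODE M21. Of the 10 members with the element, 9 rose, with a median log2 fold change of 0.68, and the exception was Ero1lb. Of the 20 members with a window and no such match, 16 rose, with a median of 0.49. These sets were not compared by a test, and the part of the element in the rise was not tested. The related element ERSE-II, read as ATTGG, any base and CCACG on either strand, was found in Herpud1 and Dnajb11, in 0.0444% of all genes with a window and in 0.0734% of those tested.
Herpud1: cgctgATTGGGCCACGttgga
Dnajb11: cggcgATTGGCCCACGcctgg

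The Herpud1 window is chr8:94386372-94386392 (plus strand), inside the span of the gene Gm15890, and that of Dnajb11 is chr16:22857847-22857867 (plus strand), in the 5′ untranslated part of its first exon. Both genes rose. ERSE-II shares the letters CCACG with the first element, and no member window held both elements. The letters TGACGTGG, the unfolded protein response element, hold ACGTG within them and matched 1 member (Txndc5, at a further start) beside 0.714% of all genes with a window and 1.01% of those tested. The letters ACGTG, the core of the hypoxia response element, were in 14 of 30 members (46.7%), in 28.4% of genes tested with a window and in 21.8% of all genes with a window, both strands searched. They were in 11 of the 25 called members with a window (44.0%) and in 3 of the 5 not called (60.0%). The core of the amino acid response element, TGATG, any base and AA, was in 2 of 30 members (6.67%), in 2.85% of genes tested with a window and in 4.51% of all genes with a window. A match of letters is a description of the window and not a measured binding site.

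The chaperones of the HSP70 and HSP90 families and their partners had the highest median change of the role groups. Of 10 genes 9 rose, with a median log2 fold change of 0.78. Hspa5 (ENSMUSG00000026864, chr2:34771970-34777547) encodes BiP, the main HSP70 of the ER, which also holds the stress sensors inactive. Hspa5 stood at 697, 804, 798, 541 and 866 CPM in the control teeth and at 1105, 1439, 1137, 1192 and 1205 CPM with IGF1. The lowest IGF1 tooth was above the highest control tooth, and the fitted rise was 1.65-fold (log2 fold change 0.73 ± 0.10 (SE), adjusted p = 0.000949). Hsp90b1 (ENSMUSG00000020048, chr10:86690209-86705509), the ER member of the HSP90 family, was the most abundant member per length, at 311 CPM per kb of exon in control. Its levels were 1121, 1451, 1247, 887 and 1561 CPM in control and 1676, 2549, 1921, 1757 and 1818 CPM with IGF1 (log2 fold change 0.64 ± 0.10 (SE), adjusted p = 0.00254). The groups did not overlap, and embryo 6 had the smallest difference and the highest control tooth.

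Hyou1 (ENSMUSG00000032115, chr9:44379490-44392369) encodes a large HSP70 relative that exchanges nucleotide on BiP, and it had the lowest adjusted p of all members. It measured 209, 162, 180, 172 and 209 CPM in control and 394, 446, 350, 357 and 420 CPM with IGF1, a 2.12-fold rise (log2 fold change 1.08 ± 0.08 (SE), adjusted p = 3.04e-05). The control teeth lay close together and every IGF1 tooth was far above them. Sdf2l1, a partner of the co-chaperone Dnajb11, showed the largest fold change of this group. It was 22.3, 10.8, 12.2, 10.5 and 14.1 CPM in control and 41.8, 35.9, 33.2, 30.6 and 29.98 CPM with IGF1, 2.55-fold higher (log2 fold change 1.35 ± 0.13 (SE), adjusted p = 0.000141). Embryo 1 had the highest Sdf2l1 of its group in both treatments and the smallest difference.

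Dnajb11 and Dnajc3 are J-domain proteins that deliver clients to BiP, and Dnajc3 also restrains PERK. Dnajb11 read 50.2, 57.6, 57.9, 53.8 and 60.7 CPM in control and 85.5, 93.9, 80.3, 99.8 and 115 CPM with IGF1 (log2 fold change 0.75 ± 0.08 (SE), adjusted p = 0.000319). Dnajc3 read 91.4, 142, 122, 93.9 and 127 CPM in control and 164, 263, 216, 167 and 195 CPM with IGF1 (log2 fold change 0.80 ± 0.07 (SE), adjusted p = 4.67e-05). Neither gene overlapped between the groups, and the embryo differences of Dnajc3 were narrow, 0.85, 0.89, 0.82, 0.83 and 0.62 on the log2 scale. Creld2 and Manf encode small ER proteins known as targets of ER stress, and Manf is also secreted as a survival factor. The level of Creld2 was 38.1, 28.6, 32.2, 27.4 and 41.04 CPM in control and 67.7, 93.7, 54.5, 62.95 and 69.2 CPM with IGF1 (log2 fold change 1.05 ± 0.13 (SE), adjusted p = 0.000752). Manf had 58.8, 69.1, 64.02, 41.1 and 78.5 CPM in control and 95.3, 142, 99.2, 104 and 126 CPM with IGF1 (log2 fold change 0.88 ± 0.10 (SE), adjusted p = 0.00054). Both were separated between the groups, with the largest difference in embryo 2 for Creld2 and in embryo 4 for Manf.

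Hspa13, a microsomal relative of HSP70, rose less, from 57.7, 96.9, 84.1, 74.5 and 73.9 CPM in control to 69.7, 129, 114, 86.7 and 84.8 CPM with IGF1 (log2 fold change 0.31 ± 0.07 (SE), adjusted p = 0.0183). Its groups overlapped, embryo 2 was highest and embryo 1 lowest under both treatments, and all 5 embryos were higher with IGF1. The call was lost without embryo 2 (adjusted p = 0.0623) or embryo 3 (adjusted p = 0.0546). Dnajb9, a J-domain protein of BiP and a known target of XBP1, was the gene of this group that was not called. It was 23.7, 27.03, 22.8, 18.9 and 20.4 CPM in control and 19.6, 37.4, 32.5, 22.02 and 16.1 CPM with IGF1 (log2 fold change 0.16 ± 0.14 (SE), adjusted p = 0.529). Embryos 1 and 6 were lower with IGF1 and embryos 2, 3 and 4 were higher.

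**Figure D2:**
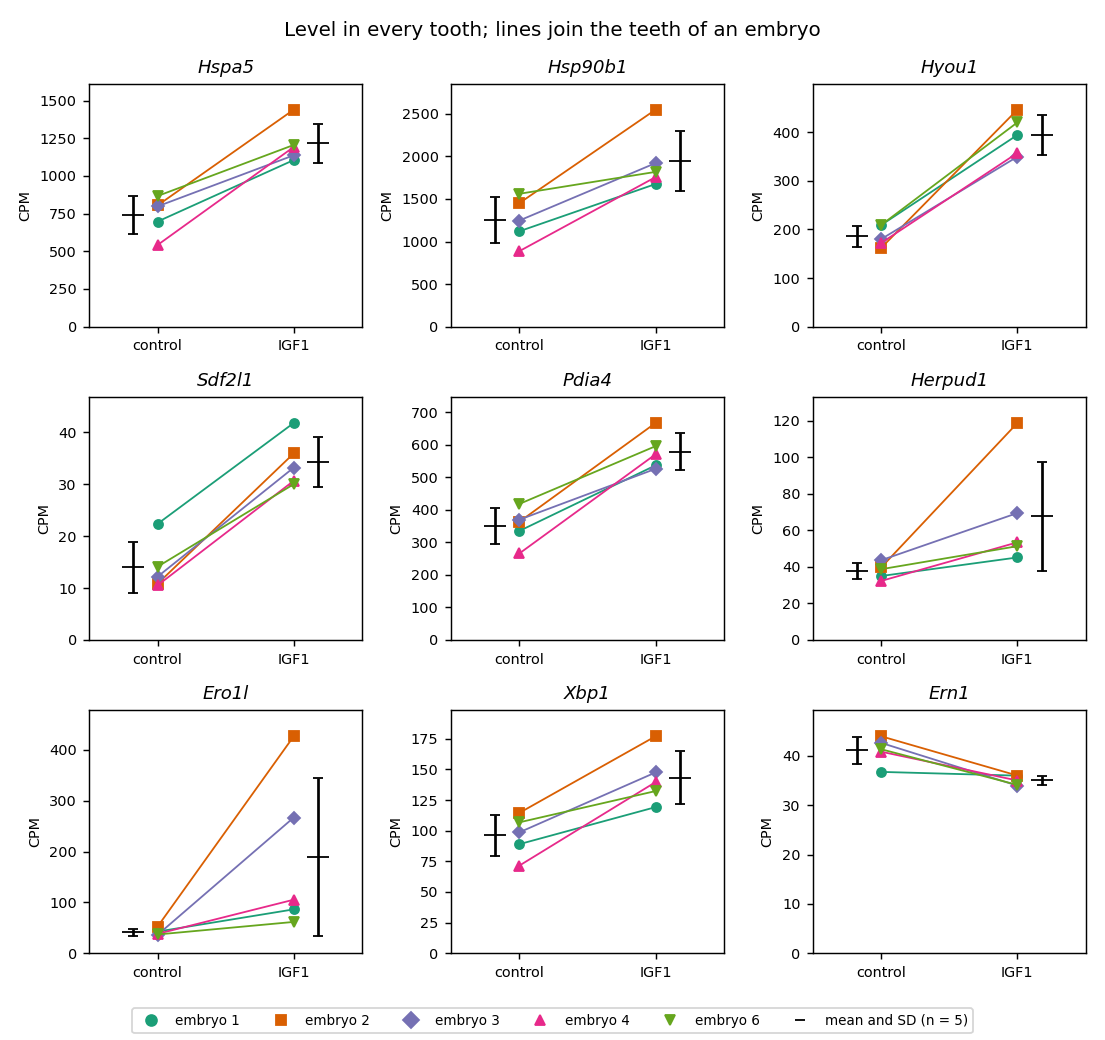
Level in every tooth (CPM, vertical axis, from 0) for 9 members in control and IGF1 teeth. Lines join the teeth of an embryo and black bars give mean ± SD (n = 5). All lines rise in 8 panels, Ero1l and Herpud1 fan out with embryo 2 on top, and all lines of Ern1 descend.

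The lectin chaperones calreticulin (Calr) and calnexin (Canx) bind glycoproteins by their trimmed sugars, and both genes rose. Calr was 700, 663, 659, 462 and 766 CPM in control and 1115, 1173, 811, 1011 and 1058 CPM with IGF1 (log2 fold change 0.68 ± 0.11 (SE), adjusted p = 0.00265). Canx was 606, 643, 585, 510 and 675 CPM in control and 801, 1018, 844, 814 and 863 CPM with IGF1 (log2 fold change 0.53 ± 0.07 (SE), adjusted p = 0.00121). In both genes the groups were apart, and for Calr embryo 4 had the lowest control tooth and the largest difference.

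Of the 9 genes of oxidative folding, 7 rose. The protein disulphide isomerases P4hb, Pdia3, Pdia4 and Pdia6 form and rearrange disulphide bonds, Pdia3 in company with the lectins and P4hb also as a subunit of collagen prolyl hydroxylase. Pdia3 measured 529, 699, 588, 466 and 704 CPM in control and 796, 1030, 850, 783 and 897 CPM with IGF1 (log2 fold change 0.56 ± 0.07 (SE), adjusted p = 0.000806). Pdia4 measured 335, 363, 370, 266 and 418 CPM in control and 536, 667, 526, 570 and 596 CPM with IGF1 (log2 fold change 0.74 ± 0.09 (SE), adjusted p = 0.000681). Pdia6 measured 356, 320, 325, 278 and 381 CPM in control and 492, 600, 476, 532 and 556 CPM with IGF1 (log2 fold change 0.68 ± 0.08 (SE), adjusted p = 0.000648). These 3 isomerases gave the same picture, no overlap between groups and the largest difference in embryo 4, whose control tooth was the lowest of each. P4hb had another order of embryos, in that its control teeth were at 503, 579, 580, 638 and 592 CPM and embryo 4 was the highest. With IGF1 P4hb was at 750, 1278, 871, 831 and 743 CPM (log2 fold change 0.60 ± 0.11 (SE), adjusted p = 0.0049), and embryo 2 stood above the other IGF1 teeth. Txndc5, a further isomerase, rose from 167, 156, 166, 186 and 169 CPM to 234, 236, 186, 239 and 227 CPM (log2 fold change 0.41 ± 0.07 (SE), adjusted p = 0.00534), and the IGF1 tooth of embryo 3 was the lowest of its group, within the reach of the controls. Erp44, which returns client enzymes from the early Golgi to the ER, was 39.2, 52.01, 46.4, 36.6 and 41.5 CPM in control and 46.1, 71.6, 57.6, 43.05 and 48.5 CPM with IGF1 (log2 fold change 0.30 ± 0.08 (SE), adjusted p = 0.0296). The groups of Erp44 overlapped, and its call was lost when any 1 of the 5 embryos was left out (adjusted p = 0.0586 to 0.108).

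Ero1l (Ero1a; chr14:45283087-45318771) encodes the oxidase that recharges the isomerases, and it is also a known target of the hypoxia response. It had the largest change of all members, and the most uneven. The control teeth were close together at 42.6, 52.3, 36.1, 38.1 and 36.95 CPM. With IGF1 the teeth were at 86.4, 427, 267, 105 and 61.7 CPM, all above control, and embryos 2 and 3 stood well above embryos 1, 4 and 6. The fitted rise was 3.73-fold (log2 fold change 1.90 ± 0.31 (SE), adjusted p = 0.0032), and the differences by embryo were 1.02, 3.03, 2.88, 1.47 and 0.74 on the log2 scale. A list of 16 hypoxia response genes, of which 15 were tested, moved alongside, with 14 higher and 0 lower. Of all genes tested, 6.72% rose. The list was drawn up after earlier results of these data had shown such genes higher, so its count was partly set in advance. With at least 10 counts required in every tooth, 12 of the list were called higher. The median difference of the list by embryo was 0.61, 2.76, 2.48, 0.99 and 0.83, again largest in embryos 2 and 3. Ankrd37 had a log2 fold change of 2.90 ± 0.45 (SE; adjusted p = 0.00249), Bnip3 of 2.20 ± 0.33 (adjusted p = 0.00193) and Egln3 of 2.10 ± 0.43 (adjusted p = 0.0103). The part of the hypoxia response in the change of Ero1l was not tested. Without Ero1l the summed member level was 5988 to 8128 CPM in control and 10073 to 13350 CPM with IGF1, still apart.

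Ero1lb, the second oxidase, was not called, at 22.3, 18.7, 19.02, 14.8 and 19.4 CPM in control and 17.9, 26.1, 31.1, 21.03 and 21.8 CPM with IGF1 (log2 fold change 0.35 ± 0.14 (SE), adjusted p = 0.14). Embryo 1 was lower with IGF1 and the other 4 embryos were higher, and without embryo 1 the gene was called (adjusted p = 0.0467). Ppib, the prolyl isomerase cyclophilin B that folds collagen, was not called either. Its values were 164, 167, 176, 174 and 184 CPM in control and 174, 236, 166, 204 and 200 CPM with IGF1 (log2 fold change 0.17 ± 0.08 (SE), adjusted p = 0.219).

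**Figure D3:**
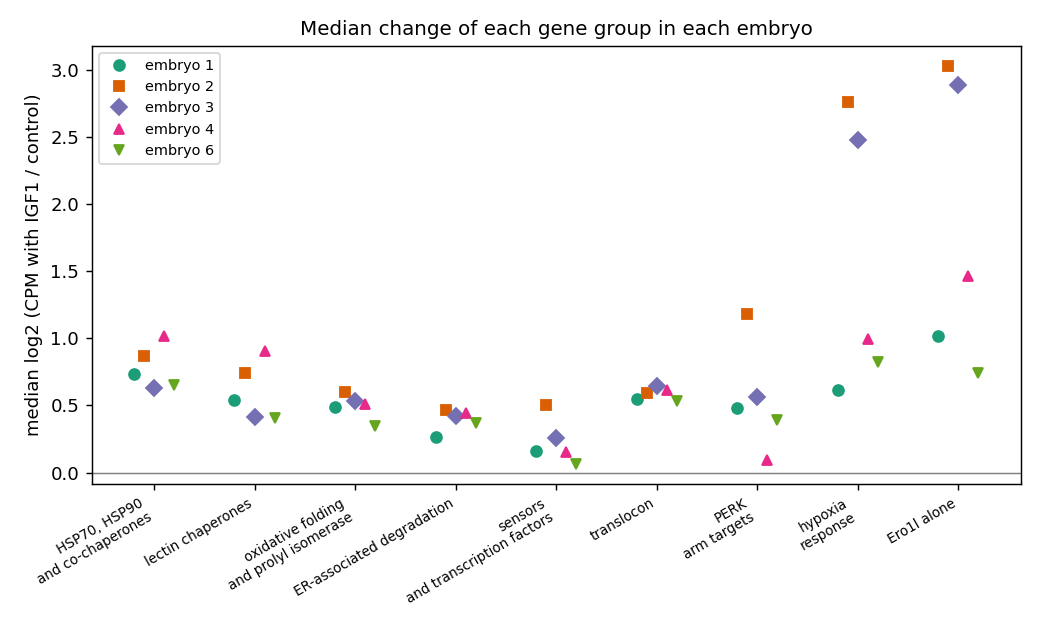
Median difference between the teeth of each embryo (log2 of CPM with IGF1 over control, vertical axis) for the 6 role groups, for targets of the PERK arm, for the hypoxia response list and for Ero1l alone. Symbols are embryos. The role groups lie between 0.07 and 1.02, with embryo 2 highest for the sensors at 0.50. For the PERK arm embryo 2 stands at 1.18, and embryos 2 and 3 stand above 2.4 for the hypoxia list and Ero1l.

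Of the 8 genes of ER-associated degradation, 7 rose, with a median log2 fold change of 0.36. Syvn1 is the ubiquitin ligase HRD1, Sel1l its adaptor and Herpud1 a stress-induced scaffold of the same complex. Herpud1 was 35.04, 39.7, 43.7, 32.3 and 38.8 CPM in control and 45.2, 119, 69.5, 53.5 and 51.4 CPM with IGF1 (log2 fold change 0.78 ± 0.15 (SE), adjusted p = 0.00859). Embryo 2 was highest with IGF1, as for Ero1l, and all IGF1 teeth exceeded the controls. Syvn1 was 57.4, 41.8, 49.1, 46.2 and 37.7 CPM in control and 73.7, 74.3, 62.1, 72.98 and 61.7 CPM with IGF1 (log2 fold change 0.58 ± 0.09 (SE), adjusted p = 0.00251). Sel1l changed less, from 189, 212, 209, 184 and 212 CPM to 224, 278, 248, 251 and 239 CPM (log2 fold change 0.30 ± 0.07 (SE), adjusted p = 0.0146). In both genes the groups were apart, by little in Sel1l, which lost its call without embryo 4 (adjusted p = 0.0751).

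The EDEM proteins trim mannose from misfolded glycoproteins, and the derlins help to carry them out of the ER. Edem1, a known XBP1 target, was 72.5, 87.7, 65.4, 64.96 and 71.03 CPM in control and 80.6, 114, 102, 82.6 and 89.1 CPM with IGF1 (log2 fold change 0.38 ± 0.08 (SE), adjusted p = 0.0129), with overlap between groups. Edem2 was not called, at 27.5, 16.7, 19.4, 24.1 and 20.9 CPM in control and 25.3, 23.1, 22.8, 25.8 and 19.3 CPM with IGF1 (log2 fold change 0.12 ± 0.12 (SE), adjusted p = 0.545). Derl1 was 68.02, 70.7, 69.9, 63.97 and 56.3 CPM in control and 74.01, 96.99, 84.1, 74.8 and 78.1 CPM with IGF1 (log2 fold change 0.31 ± 0.08 (SE), adjusted p = 0.0251), and the groups just failed to touch. Derl2 was 47.8, 65.6, 58, 45.8 and 53.2 CPM in control and 58.2, 78.1, 82.3, 61.8 and 61.8 CPM with IGF1 (log2 fold change 0.34 ± 0.08 (SE), adjusted p = 0.0163), and its groups overlapped. Derl3 is the derlin most tied to secretory cells and was the scarcest member per length, at 1.45 CPM per kb in control. It was 4.12, 1.75, 3.54, 1.70 and 3.33 CPM in control and 7.78, 4.75, 6.31, 6.49 and 4.71 CPM with IGF1, 2.13-fold higher (log2 fold change 1.09 ± 0.26 (SE), adjusted p = 0.0203). The 3 derlins thus rose from very different levels, and each lost its call without embryo 4 (adjusted p = 0.0588, 0.0677 and 0.0781). The calls of Derl1 and Derl3 were also lost without embryo 2 (adjusted p = 0.0832 and 0.0586), and that of Derl1 without embryo 6 (adjusted p = 0.106).

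The sensors and their transcription factors did not move alike. Eif2ak3, which encodes PERK, rose from 37.5, 44.4, 41.1, 45.96 and 41.8 CPM to 47.8, 65.8, 52.6, 58.4 and 60.4 CPM (log2 fold change 0.43 ± 0.08 (SE), adjusted p = 0.00492). Xbp1, the transcript that IRE1 splices, rose from 88.98, 114, 98.6, 71.5 and 107 CPM to 119, 177, 148, 140 and 132 CPM (log2 fold change 0.58 ± 0.09 (SE), adjusted p = 0.00263). Neither overlapped between groups, and the counts are per gene, so the spliced and unspliced forms of Xbp1 are not separated. Atf6 was 61.8, 66.9, 61.7, 63.5 and 67.1 CPM in control and 60.8, 90.8, 68.8, 62.1 and 59.4 CPM with IGF1 (log2 fold change 0.08 ± 0.09 (SE), adjusted p = 0.645), and embryos 1, 4 and 6 were lower while embryos 2 and 3 were higher. Ern1, which encodes IRE1, was the only member with a negative change. It was 36.8, 43.98, 42.6, 40.9 and 41.4 CPM in control and 36, 36.02, 33.97, 35.01 and 34.1 CPM with IGF1 (log2 fold change -0.24 ± 0.08 (SE), adjusted p = 0.0885). All 5 embryos were lower and the groups did not overlap, a pattern of 3.03% of all genes, but the adjusted p missed the threshold.

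The 3 genes of the translocon all rose by about the same amount. Sec61a1 encodes the channel, Sec61b a small subunit of it, and Ssr1 a subunit of the associated TRAP complex. Sec61a1 was 174, 172, 174, 181 and 168 CPM in control and 263, 296, 217, 228 and 250 CPM with IGF1 (log2 fold change 0.52 ± 0.08 (SE), adjusted p = 0.00224). Sec61b was 28.9, 36.5, 26.7, 27.8 and 34.4 CPM in control and 40.03, 49.1, 42.9, 44.8 and 49.8 CPM with IGF1 (log2 fold change 0.56 ± 0.08 (SE), adjusted p = 0.00193). Ssr1 was 162, 186, 153, 143 and 173 CPM in control and 236, 281, 239, 220 and 239 CPM with IGF1 (log2 fold change 0.58 ± 0.06 (SE), adjusted p = 0.000265). None of them overlapped between groups, and Ssr1 had the narrowest spread over embryos of all members, 0.55, 0.59, 0.64, 0.62 and 0.47 on the log2 scale.

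Per length of exon, the control levels of the members spanned from 1.45 CPM per kb in Derl3 to 311 CPM per kb in Hsp90b1. After Hsp90b1 the order was Calr (226), P4hb (202), Pdia3 (190), Hspa5 (175), Pdia4 (146), Canx (129) and Pdia6 (88.6 CPM per kb). The control teeth varied by a median of 14.1% (coefficient of variation), so neighbours such as P4hb and Pdia3 lie within that spread. The sensors were far below, with Eif2ak3 at 6.99, Atf6 at 6.96 and Ern1 at 5.03 CPM per kb. With IGF1 the first was again Hsp90b1 at 482 CPM per kb, and Ero1l moved from 7.80 to 35.9 CPM per kb.

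Embryos differed in where the changes were largest. Embryo 2 gave the largest difference in 15 members and embryo 4 in 12, while embryo 6 gave the smallest in 17. The control tooth of embryo 4 had the lowest summed level of the controls and that of embryo 6 the highest, and the IGF1 tooth of embryo 2 had the highest sum of all. The median difference of the members was 0.47, 0.65, 0.52, 0.67 and 0.45 in embryos 1, 2, 3, 4 and 6, against 0.02, -0.01, 0.00, 0.00 and 0.00 over all genes tested.

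Other genes of the ER and of its signalling were read from the same fit. Of 124 listed genes 120 were tested, and 46 rose (38.3%) while 1 fell, with a median log2 fold change of 0.23. The 46 include Chac1, which passed the filter on low counts only through its IGF1 teeth. Among 20 KDEL receptors and carriers between ER and Golgi 14 rose, led by Kdelr3 (1.29 ± 0.15, adjusted p = 0.000544), Surf4 (0.72 ± 0.07, adjusted p = 0.000153) and Sec24d (0.66 ± 0.08, adjusted p = 0.000485) on the log2 scale with SE. The KDEL receptors return escaped chaperones to the ER. Of 24 genes of translocation, signal peptidase and oligosaccharyltransferase 15 rose, among them Rpn1 (0.73 ± 0.07, adjusted p = 0.00013), Ostc (0.57 ± 0.07, adjusted p = 0.000505) and Spcs3 (0.54 ± 0.08, adjusted p = 0.00159). Of 30 tested genes for further folding factors 10 rose, among them Fkbp11 (0.89 ± 0.15, adjusted p = 0.00419), Txndc11 (0.73 ± 0.07, adjusted p = 0.000194) and Pdia5 (0.64 ± 0.11, adjusted p = 0.00438). The further genes of ER-associated degradation were near the background, with 2 of 21 higher (9.52%), Selenos (0.53 ± 0.11, adjusted p = 0.0126) and Vcp (0.32 ± 0.06, adjusted p = 0.00897). Of 16 tested genes for further sensors and factors, Atf6b (0.37 ± 0.10, adjusted p = 0.0333) and Eif2ak4 (0.31 ± 0.08, adjusted p = 0.0376) rose. Mbtps1, the protease that makes the first cut of ATF6 and also of the SREBP factors, fell from 326 to 354 CPM to 239 to 302 CPM (log2 fold change -0.31 ± 0.07 (SE), adjusted p = 0.0156).

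Targets of the PERK arm gave 3 rising genes of 9 tested, Chac1 among them. Chac1, which degrades glutathione, was at 1.03, 1.31, 0.709, 0.851 and 0.454 CPM in control and 4.90, 16.3, 3.44, 3.53 and 1.71 CPM with IGF1 (log2 fold change 2.58 ± 0.34 (SE), adjusted p = 0.000902). Its control teeth held only 3, 9, 6, 6 and 3 counts, so it passed the filter on low counts only through its IGF1 teeth. Its entry into the test thus depended on its being high with IGF1, and no conclusion is drawn from its call. Asns, the asparagine synthetase, was at 21.99, 30.2, 29.5, 19.1 and 32.4 CPM in control and 50.97, 183, 93.8, 68.6 and 66.8 CPM with IGF1 (log2 fold change 1.71 ± 0.19 (SE), adjusted p = 0.000279). Atf4 itself went from 83.5 to 101 CPM to 103 to 154 CPM (log2 fold change 0.41 ± 0.10 (SE), adjusted p = 0.0198). In all 3 the groups were apart and embryo 2 was the highest IGF1 tooth. Ddit3, the death factor CHOP, was not called, at 13.1, 9.20, 12.5, 11.6 and 8.48 CPM in control and 15.8, 35.1, 15.3, 14.5 and 12.6 CPM with IGF1 (log2 fold change 0.70 ± 0.23 (SE), adjusted p = 0.0766), and embryo 2 had the largest difference. Trib3 did not pass the filter on low counts, with 1.37, 0.731, 1.30, 0.709 and 0.757 CPM in control and 2.88, 28.3, 11.7, 2.96 and 1.43 CPM with IGF1. The other 5 tested targets were not called, with log2 fold changes ± SE of 0.78 ± 0.28 (adjusted p = 0.102) for Nupr1, 0.72 ± 0.22 (adjusted p = 0.0548) for Sesn2, 0.20 ± 0.17 (adjusted p = 0.516) for Vldlr, -0.06 ± 0.36 (adjusted p = 0.945) for Atf3 and -0.11 ± 0.23 (adjusted p = 0.796) for Ppp1r15a. Of these, Sesn2 also had its groups apart, at 11.98 to 22.1 CPM in control and 23.6 to 45.9 CPM with IGF1. Atf3, Ppp1r15a and Vldlr were lower with IGF1 in 3 of 5 embryos. The level per tooth is given for Ddit3 and Trib3 by a choice made after their values were seen. Asns and Chac1 are known to respond to amino acid supply through ATF4 as well, and the part of that supply in their change was not tested.

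**Figure D4:**
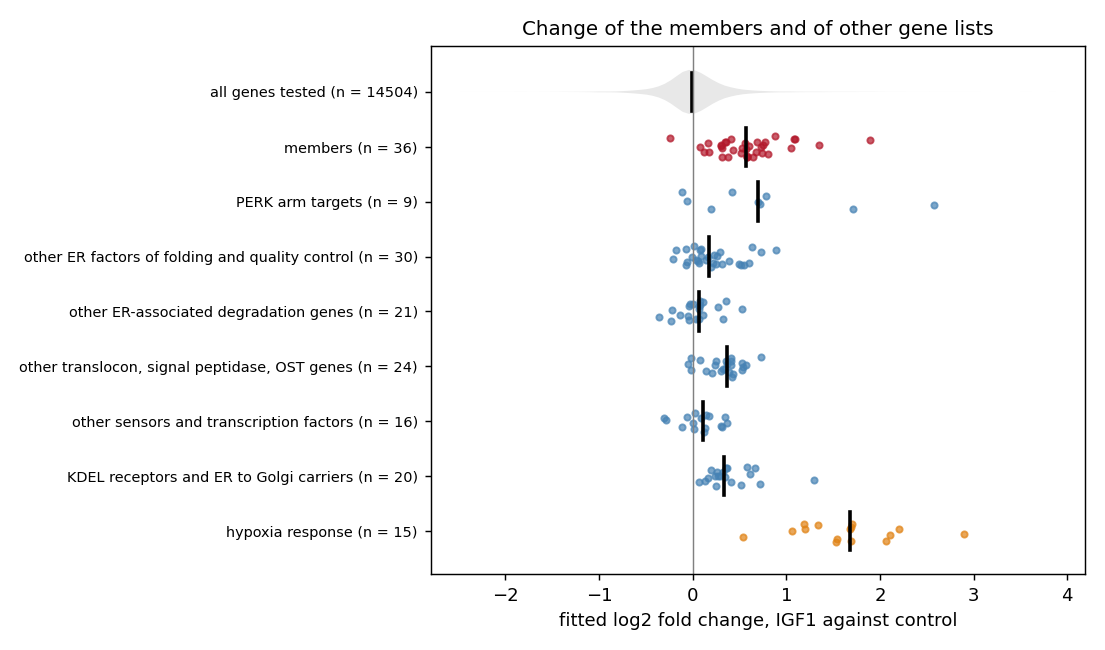
Fitted log2 fold change of IGF1 against control (horizontal axis) for all genes tested (grey density), the 36 members (red), the other ER lists (blue) and the hypoxia list (orange). Points are genes and black bars are medians. The median of the members is 0.57 and that of all genes is at 0, and OST stands for oligosaccharyltransferase.

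The number of members called higher ranged from 25 to 30 over the alternatives tried, and 0 were called lower in any of them. Of the 30 called members, 23 were past the threshold in every alternative. The others were Hspa13, Erp44, Sel1l, Edem1, Derl1, Derl2 and Derl3, all of them genes of small change or low level.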

How the data were processed

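RNA of single teeth was sequenced with the Ovation Mouse RNAseq System. Per the submitters' processing notes, reads were checked with FastQC 0.11.8, trimmed with Trimmomatic 0.39 and quantified with Salmon 0.99.0 on GRCm38. The transcript set and strand use are not given in the sources used here. The authors deposited estimated counts per gene, as whole numbers and without normalization, for 18381 genes with at least 10 counts in all, so rounding changed none. The paper given with the series describes another experiment.

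Symbols, coordinates and exon lengths were taken from GENCODE M21, which held 18287 of the identifiers. Counts were filtered with filterByExpr, scaled with TMM and tested with edgeR's quasi-likelihood test, with embryo as a block and Benjamini-Hochberg adjustment over 14504 genes. The SE is the log2 fold change over the root of the F statistic. The block rests on the labels, which give both teeth of a pair to the same embryo. Deviations from the group means correlated at 0.319, 0.208, -0.0389, 0.170 and 0.313 within pairs 1, 2, 3, 4 and 6, and at a median of -0.0463 between embryos. Each tooth was handled alone, so the replicates are separate embryos. Genes that share exon bases with another gene could share reads. Ppib shared 25% of its exon bases with Snx22 (42 counts of Snx22 in all) and Hsp90b1 10.3% with 1810014B01Rik (275 counts). Some called members shared bases with other counted genes, and only in Manf did these have more counts than the member. Manf (5998 counts) shared 4.14% with Dcaf1 (7067) and 0.397% with Rbm15b (7397), and Derl2 (4200) shared 2.87% with Mis12 (3577). Syvn1 (3815) shared 1.87% with Mrpl49 (2040), and Txndc5 (13087) shared 4.99% with Bmp6 (1877). The effect of shared reads on these genes was not tested. Total counts of 2845773 to 8763113 limit the precision of scarce genes such as Derl3.

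The members, lists and tests were chosen with earlier results of these data known. Values per tooth are given for each called member. Of other lists, up to 3 called genes with the largest change are named. One gene of the epithelial marker list is not reported here and is left out of its sum. Promoter sequences are from RefSeq (GRCm38.p6), matched by symbol or RefSeq synonym for 30 of 36 members, and not for Hyou1, Hspa13, Manf, Derl1, Atf6 and Sec61a1. The analysis was repeated without the block, leaving out each embryo, with other count filters, with limma-voom, and with DESeq2 (its size factors in edgeR, and its Wald test). The edgeR test was run on simulated counts, where unchanged genes made up more of the calls than the threshold of 0.05 sets, so calls near the threshold are less firm than their adjusted p. R 4.3.3, edgeR 4.0.16, limma 3.58.1 and DESeq2 1.42.0 were used.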

Additional observations from a re-analysis of the deposited data

Results flagged for a closer look

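Among 72 groups of 5 teeth (36 members in 2 treatments), 4 had a tooth whose gap to its nearest neighbour took up more of the group's range than chance gives in 1 of 20 groups, and about 3.6 would do so by chance. In 3 of them it was the IGF1 tooth of embryo 2. Hsp90b1 was 2549 CPM there against 1676 to 1921 CPM in the other IGF1 teeth (gap over range 0.719). Canx was 1018 CPM against 801 to 863 CPM (0.715), and P4hb was 1278 CPM against 743 to 871 CPM (0.76). Txndc5 was 186 CPM in the IGF1 tooth of embryo 3 against 227 to 239 CPM (0.773), the lowest of its group. Without embryo 2, Hsp90b1, Canx and P4hb were still called higher, and without embryo 3 so was Txndc5.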

How the results depend on the processing

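Over all genes, 1666 were called, 887 without the replicate block, and 986 to 1602 when an embryo was left out; the cause was not tested beyond the smaller number of samples in the latter. The count of members called higher was 30, 25 without the block, 29 with DESeq2's Wald test, and 25 (without embryo 4) to 30 when an embryo was left out. The median of the members stayed between 0.54 and 0.58 when an embryo was left out. Other ER genes called higher numbered 32 without the block and 33 to 47 when an embryo was left out, and the hypoxia list 12 to 14 over all alternatives. Of 396 values of single members under an alternative, 374 kept their direction and side of the threshold, 20 lost it, 1 gained it and 1 changed sign. The last was Atf6, not called in any alternative, at -0.02 (-0.0176) without embryo 2, and at up to 0.14 (without embryo 6) when another was left out. The adjusted p over the alternatives ran from 0.0263 to 0.256 for Erp44, 0.0125 to 0.309 for Hspa13 and 0.0169 to 0.106 for Derl1. Without the block Hspa13, Erp44, Edem1, Derl1 and Derl2 were not called. The block changed no call in the other members.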

Other observations

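Outside the members, 8 genes tested carry the ER stress response element in their promoter window. Of these, 3 were higher with IGF1 and 0 lower by edgeR's quasi-likelihood test, beside 6.72% of all genes tested that were higher. The 3 are Alg12 (log2 fold change 0.83 ± 0.14 SE, adjusted p = 0.00419), a mannosyltransferase that builds the sugar chain for glycosylation in the ER, Hnrnpa3 (log2 fold change 0.41 ± 0.09 SE, adjusted p = 0.0155) and Zfp57 (log2 fold change 0.39 ± 0.09 SE, adjusted p = 0.0185). The other 5 were not called and are Acacb (log2 fold change 0.21 ± 0.17 SE, adjusted p = 0.493), Xlr3b (log2 fold change 0.12 ± 0.35 SE, adjusted p = 0.868), Adcy3 (log2 fold change 0.04 ± 0.10 SE, adjusted p = 0.856), Spats2l (log2 fold change 0.01 ± 0.08 SE, adjusted p = 0.973) and Pan2 (log2 fold change -0.14 ± 0.10 SE, adjusted p = 0.432). The genes were looked up after the promoter search and are given as values only. They were set apart from the members by symbol and not by position. A match in a stretch shared with the promoter of a member would thus be counted again, and this was not examined.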
